A study of Mus musculus with 10 samples.

Results

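Cdx1, Cdx2, Hnf4a, Hnf4g, Gata4, Gata6, Klf4, Klf5 and Elf3 encode transcription factors that set up and maintain the intestinal epithelium. They were chosen by name, and all 9 were found among the 20579 genes of the count table. RNA was sequenced from cells sorted for green fluorescent protein made under the Hopx promoter, taken from the intestine of C57BL6/J / 129S4 mice at stage E18.5, shortly before birth. Hopx encodes a homeodomain protein that marks slow-cycling crypt cells, and every library carried the reporter. The 5 p57KO libraries came from embryos without p57Kip2, the cyclin-dependent kinase inhibitor encoded by Cdkn1c, and the 5 p57WT libraries from wild-type embryos. The allele, its parental origin and whether it was deleted in every tissue are not stated by the labels.

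The CDX homeodomain proteins give the gut endoderm its intestinal identity, and without Cdx2 the epithelium takes on features of the foregut. HNF4 nuclear receptors and GATA zinc finger proteins then drive the genes of absorptive cells, with Gata4 marking the proximal small intestine. Klf5 is known from dividing crypt cells, Klf4 from postmitotic goblet and surface cells, and Elf3 is an epithelium-restricted ETS factor.

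Library depth ranged from 8037887 to 26809231 counts, so 3 counts corresponded to between 0.112 and 0.373 CPM, a count normalised for library size, here by trimmed means (TMM). Cdkn1c checked the labels: it ranged from 0.153 to 2.06 CPM across p57KO and from 150.5 to 458.1 CPM across p57WT. Several differences between libraries moved with genotype. The summed level of 10 smooth muscle genes was 5638 to 38520 CPM in p57KO and 56520 to 115900 CPM in p57WT, and that of 8 myeloid genes was 204 to 8312 CPM against 19.2 to 142.5 CPM. The 20 structural epithelial genes, such as Epcam and keratins, summed to 6510 to 12670 CPM in p57KO and 2324 to 5436 CPM in p57WT, with no overlap. Ribosomal RNA took more than 1% of counts in p57KO 5 and in p57WT 1, 3, 4 and 5, and less in the other 5 libraries. The labels also carry a number of unstated meaning, which was 607 for p57KO 1, p57KO 2 and p57WT 1, 608 for p57KO 3 to 5 and 740 for p57WT 2 to 5. The sorted cells are labelled as intestinal stem cells; Epcam ranged from 521.6 to 2769 CPM and Hopx from 60.4 to 199.2 CPM, while the smooth muscle sum exceeded the epithelial sum in all libraries but p57KO 1 and 2. The part of these differences in the members' values was not tested. In bulk samples, fewer cells of a type and less RNA per cell cannot be told apart. Each member is therefore given per library under TMM scaling, and again with libraries scaled to the 20 epithelial genes, none of which is a member.

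Promoter sequence was available for 4 members in the RefSeq table (GRCm38.p6), and it is shown because such factors are known to bind each other's regulatory regions. Each run is the strand of the gene, 5′ to 3′, from the 250 bases before the start site with annotated exon bases left out. Capitals mark matches on either strand to 5 short core motifs: TTTAT for CDX, CAAAGT for HNF4, AGATAA for GATA, CACCC for KLF and AGGAAG for ETS factors.
Cdx2, chr5:147307271-147307499, minus strand: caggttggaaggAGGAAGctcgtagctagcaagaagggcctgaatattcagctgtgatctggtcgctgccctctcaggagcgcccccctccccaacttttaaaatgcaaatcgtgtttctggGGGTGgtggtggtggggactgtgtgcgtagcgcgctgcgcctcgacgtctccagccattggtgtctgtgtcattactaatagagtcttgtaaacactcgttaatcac
Elf3, chr1:135258569-135258722, minus strand: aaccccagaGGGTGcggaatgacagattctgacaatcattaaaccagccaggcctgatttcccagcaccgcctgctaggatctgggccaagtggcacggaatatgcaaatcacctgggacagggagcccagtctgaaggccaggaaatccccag
Hnf4a, chr2:163506607-163506807, plus strand: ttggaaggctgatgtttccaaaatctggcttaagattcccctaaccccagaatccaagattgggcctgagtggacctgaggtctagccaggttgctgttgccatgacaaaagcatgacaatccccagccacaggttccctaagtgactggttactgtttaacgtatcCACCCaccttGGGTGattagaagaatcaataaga
Klf4, chr4:55532476-55532725, minus strand: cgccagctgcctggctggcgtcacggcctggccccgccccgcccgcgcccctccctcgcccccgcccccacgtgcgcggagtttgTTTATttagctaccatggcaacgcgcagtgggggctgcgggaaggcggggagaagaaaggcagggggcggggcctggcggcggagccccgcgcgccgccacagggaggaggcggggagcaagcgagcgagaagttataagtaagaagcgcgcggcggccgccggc

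The Klf4 stretch had a GC content of 74% and a single match, to the CDX core. The Cdx2 stretch (53.7% GC) held 1 KLF and 1 ETS core, the Elf3 stretch (55.8%) 1 KLF core and the Hnf4a stretch (47.3%) 2 KLF cores. Such short words are common: in the full 250 bases of 32851 promoters, TTTAT was present in 37.3%, CAAAGT in 12.6%, AGATAA in 9.99%, CACCC in 52% and AGGAAG in 29.5%. In their own full 250 bases, Cdx2 and Klf4 held the same matches as printed and Elf3 held 2 KLF cores. The Hnf4a entry printed here held 3 KLF cores, 1 GATA core and 1 ETS core. Hnf4a had a second promoter entry, chr2:163546905-163547154, with 5 KLF cores and no other match. It is not printed, as 38 of its bases lie in annotated exons. The matches describe these letters only. No binding was measured.

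The comparison asks how these factors differ in Hopx-expressing cells without p57Kip2. By edgeR's quasi-likelihood test, 6 of the 9 members were called higher in p57KO and 0 lower, at an adjusted p below 0.05 over 16710 genes. The background was high, with 19.3% of all tested genes called higher and 17.2% lower. No member was lower at an unadjusted p below 0.05 either, and the DESeq2 Wald test also called 6 higher and 0 lower. The members' median log2 fold change was 0.87, against 0.08 over all tested genes and 1.18 over the 20 structural epithelial genes, of which 16 were called higher. With epithelial scaling, 0 members were called higher and 1, Klf4, was called lower, against 2.44% and 61.3% of all tested genes, and the median of all genes moved to -1.31. Hnf4g alone was higher there at an unadjusted p below 0.05. The genotypes did not overlap for 3 members, Cdx1, Hnf4g and Elf3, each higher in p57KO by TMM; p57KO lay wholly above p57WT for 11.5% of tested genes and wholly below it for 12.7%.

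**Figure D1:**
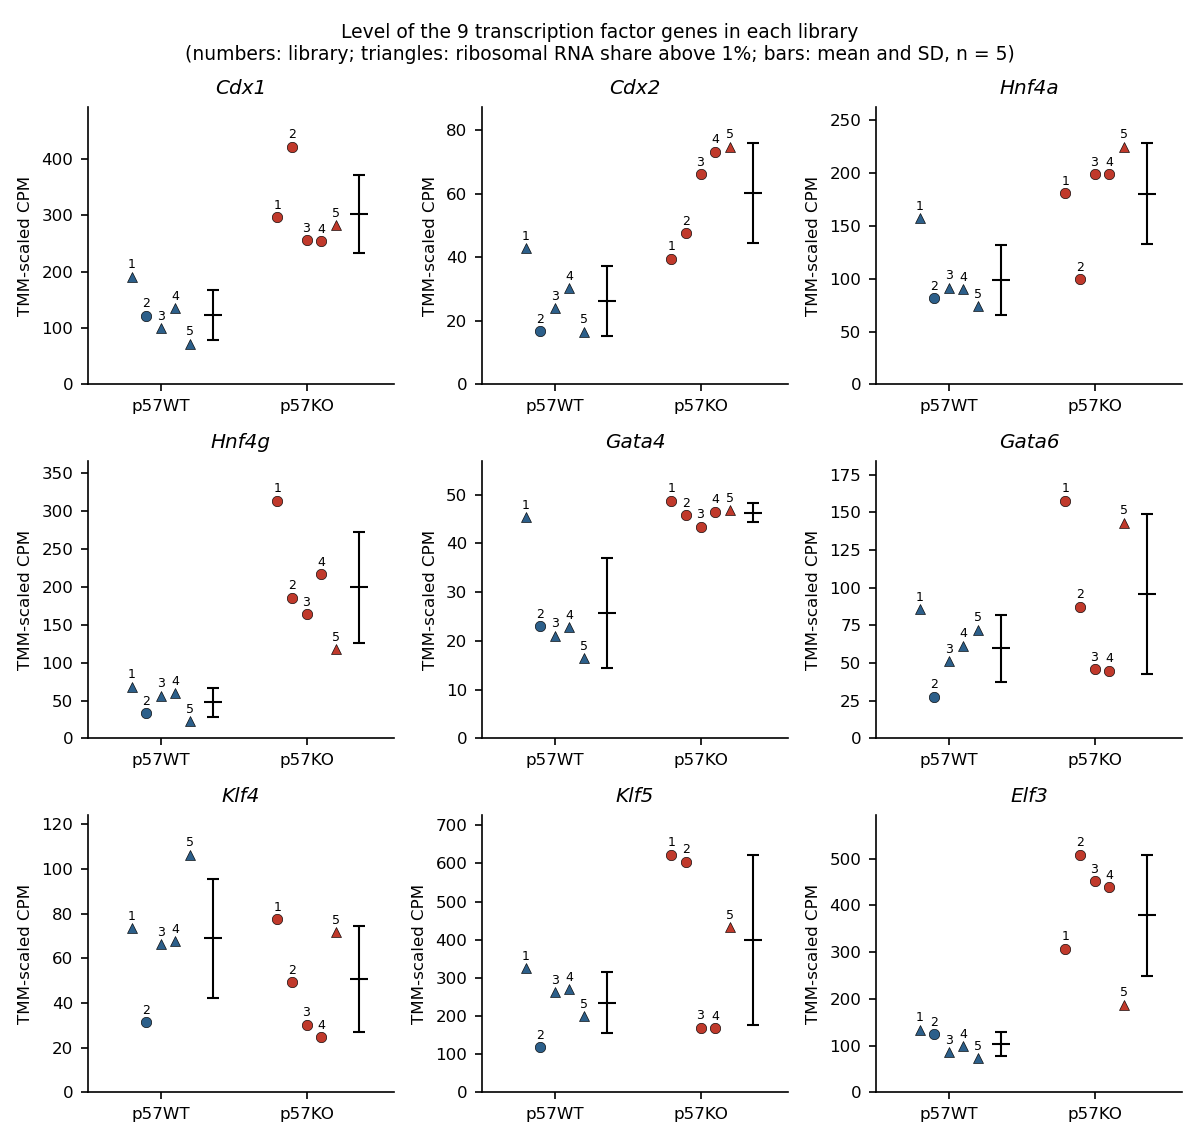
Level of each of the 9 factors in TMM-scaled CPM on a linear axis from 0, with 1 numbered symbol for each of the 5 p57KO and 5 p57WT libraries (triangles, ribosomal RNA share above 1%) and the mean with SD beside them. The genotypes are separate for Cdx1, Hnf4g and Elf3 and overlap for the other 6; with epithelial scaling the ranges of all 9 overlap.

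Cdx1, a CDX protein of the intestinal crypt, was the member with the highest level per kilobase of transcript. In p57KO 1 to 5 it stood at 296.3, 421.6, 256, 254.5 and 281.8 CPM, and in p57WT 1 to 5 at 190.9, 121.9, 99.5, 134.9 and 72.4 CPM. Every p57KO library lay above every p57WT library, and p57KO 2 stood apart as the highest. Mean levels of 302 ± 69.2 and 124 ± 44.3 CPM (SD, n = 5 each) differed 2.44-fold (log2 fold change 1.29, SE 0.28, edgeR adjusted p = 0.00400). Relative to the epithelial genes the difference was near 0 and its sign turned (log2 fold change -0.02, 95% limits -0.66 to 0.62, edgeR adjusted p = 0.964).

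Cdx2, the determinant of intestinal fate, was at 39.6, 47.5, 66.0, 73.2 and 74.8 CPM in p57KO 1 to 5 and at 42.9, 16.8, 24.1, 30.4 and 16.6 CPM in p57WT 1 to 5. Only p57WT 1 reached into the p57KO range. The log2 fold change was 1.21 (SE 0.30, edgeR adjusted p = 0.00885). With epithelial scaling it was 0.04 (95% limits -0.77 to 0.86, edgeR adjusted p = 0.927). On that scale, in CPM per 1000 CPM of the epithelial genes, p57KO 1 and 2 had the lowest Cdx2 of all 10 libraries, at 3.12 and 3.96, and p57KO 3 to 5 the highest, at 9.34, 9.42 and 11.5. The p57WT libraries, at 5.13 to 8.79, lay between them.

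Hnf4a, the HNF4 receptor shared with liver and pancreas, was at 181, 99.6, 198.8, 198.9 and 225.1 CPM in p57KO 1 to 5 and at 157.2, 81.9, 91.7, 90.1 and 74.2 CPM in p57WT 1 to 5. The genotypes overlapped through p57KO 2 and p57WT 1. The log2 fold change was 0.87 (SE 0.28, edgeR adjusted p = 0.0263), and it turned to -0.33 with epithelial scaling (95% limits -1.12 to 0.46, edgeR adjusted p = 0.437). The call was lost when p57KO 3, p57KO 4 or any of p57WT 2 to 5 was left out, with edgeR adjusted p between 0.0508 and 0.0696.

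Hnf4g, its close relative with a role in absorptive cells, had the largest TMM log2 fold change of the 9 over all libraries. Klf4 had the largest with epithelial scaling. Elf3 exceeded Hnf4g without p57KO 1 (1.94 against 1.84) and without p57KO 1 and 2 together (1.86 against 1.85). Without p57WT 2 both were at 1.95. With mean smooth muscle expression as a covariate, a fit chosen after seeing the data, Elf3 (1.72) and Cdx2 (1.66) exceeded Hnf4g (1.31). Hnf4g was at 313.7, 185.8, 163.7, 216.3 and 117.4 CPM in p57KO 1 to 5 and at 68.4, 33.6, 56.3, 59.3 and 22.5 CPM in p57WT 1 to 5, with no overlap. The means of 199.4 ± 73.4 and 48.0 ± 19.2 CPM (SD, n = 5 each) differed 4.16-fold (log2 fold change 2.05, SE 0.34, edgeR adjusted p = 0.00108). With epithelial scaling its sign held, but it missed the threshold (log2 fold change 0.71, 95% limits 0.04 to 1.38, edgeR adjusted p = 0.0592), and of the 10 fits that leave out a library it passed only without p57KO 2 (0.81, edgeR adjusted p = 0.0436).

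Gata4, the factor of the proximal small intestine, was nearly level across p57KO at 48.8, 45.8, 43.5, 46.5 and 46.8 CPM. In p57WT 1 to 5 it was at 45.4, 23.0, 21.1, 22.8 and 16.5 CPM, so that p57WT 1 lay inside the p57KO range and the other 4 below it. The log2 fold change was 0.85 (SE 0.27, edgeR adjusted p = 0.0247). It turned to -0.39 with epithelial scaling (95% limits -1.06 to 0.27, edgeR adjusted p = 0.276). The call was lost without p57WT 3, 4 or 5, at edgeR adjusted p of 0.0637, 0.0638 and 0.0622.

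Gata6, which is expressed along the whole small intestine and colon, did not pass. It was at 157.7, 87.4, 46.1, 45.0 and 143 CPM in p57KO 1 to 5 and at 85.7, 27.6, 51.4, 61.5 and 72.1 CPM in p57WT 1 to 5, which overlap. The log2 fold change was 0.68 (95% limits -0.17 to 1.54, edgeR adjusted p = 0.188) and -0.71 with epithelial scaling (95% limits -1.62 to 0.20, edgeR adjusted p = 0.153). An antisense gene, 1010001N08Rik, overlaps exons of Gata6 and averaged 15.6 ± 4.86 CPM in p57KO against 4.03 ± 2.49 CPM in p57WT (SD, n = 5 each). The strand setting was not given, so reads of the pair could not be told apart.

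Klf5 was at 622.9, 604.2, 169.5, 168.7 and 433.1 CPM in p57KO 1 to 5 and at 324.9, 117.8, 262.8, 270.2 and 199.3 CPM in p57WT 1 to 5. The p57KO libraries spanned the whole p57WT range but for its lowest library. The log2 fold change of 0.77 did not pass (95% limits -0.12 to 1.65, edgeR adjusted p = 0.157), and with epithelial scaling it was -0.68 (95% limits -1.51 to 0.15, edgeR adjusted p = 0.137).

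Klf4 was the only member with a lower mean in p57KO under both TMM and epithelial scaling, and of these only epithelial scaling gave a call. It was at 77.5, 49.4, 30.4, 24.9 and 71.8 CPM in p57KO 1 to 5 and at 73.6, 31.5, 66.3, 67.6 and 106.5 CPM in p57WT 1 to 5. The TMM log2 fold change was -0.44 (95% limits -1.23 to 0.34, edgeR adjusted p = 0.354), and 0.20 with ribosomal RNA class as a term (0.771). With mean smooth muscle expression as a covariate, a fit chosen after seeing the data, it was -1.13 (0.184). Per 1000 CPM of the epithelial genes, Klf4 was at 6.12, 4.11, 4.30, 3.21 and 11.0 in p57KO and at 13.6, 9.61, 20.1, 19.6 and 45.8 in p57WT. The ranges met only through p57KO 5 and p57WT 2. That log2 fold change was -1.92 (95% limits -2.88 to -0.95, edgeR adjusted p = 0.00234), against a median of -1.31 over all genes on that scale. It ranged from -2.29 to -1.45 with each library left out (largest edgeR adjusted p = 0.00893) and was -1.94 with libraries scaled to Epcam alone (0.00133). With ribosomal RNA class as a term it was -1.14 (0.0492). The median over all genes in that last fit was -1.20, so Klf4 was not below the middle of all genes there.

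Klf4, Klf5 and Gata6 shared a pattern across libraries: within each genotype, the lowest values fell on p57KO 3, p57KO 4 and p57WT 2. These 3 libraries have a low ribosomal RNA share and at least 25043153 counts; p57KO 2 is like them in both and was not low for Klf5. Whether this has a part in their results was not tested.

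Elf3 was at 307.8, 508.6, 452.2, 438.6 and 187.4 CPM in p57KO 1 to 5 and at 134.5, 125.3, 86.8, 99.0 and 73.7 CPM in p57WT 1 to 5, with no overlap. The means of 378.9 ± 129.9 and 103.9 ± 25.6 CPM (SD, n = 5 each) differed 3.65-fold (log2 fold change 1.87, SE 0.30, edgeR adjusted p = 0.000898). With epithelial scaling the log2 fold change kept its sign at 0.53 and did not pass (95% limits -0.21 to 1.26, edgeR adjusted p = 0.189). The antisense gene Gm26642, which overlaps its exons, was at 0.942 and 1.25 CPM in p57KO and p57WT.

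**Figure D2:**
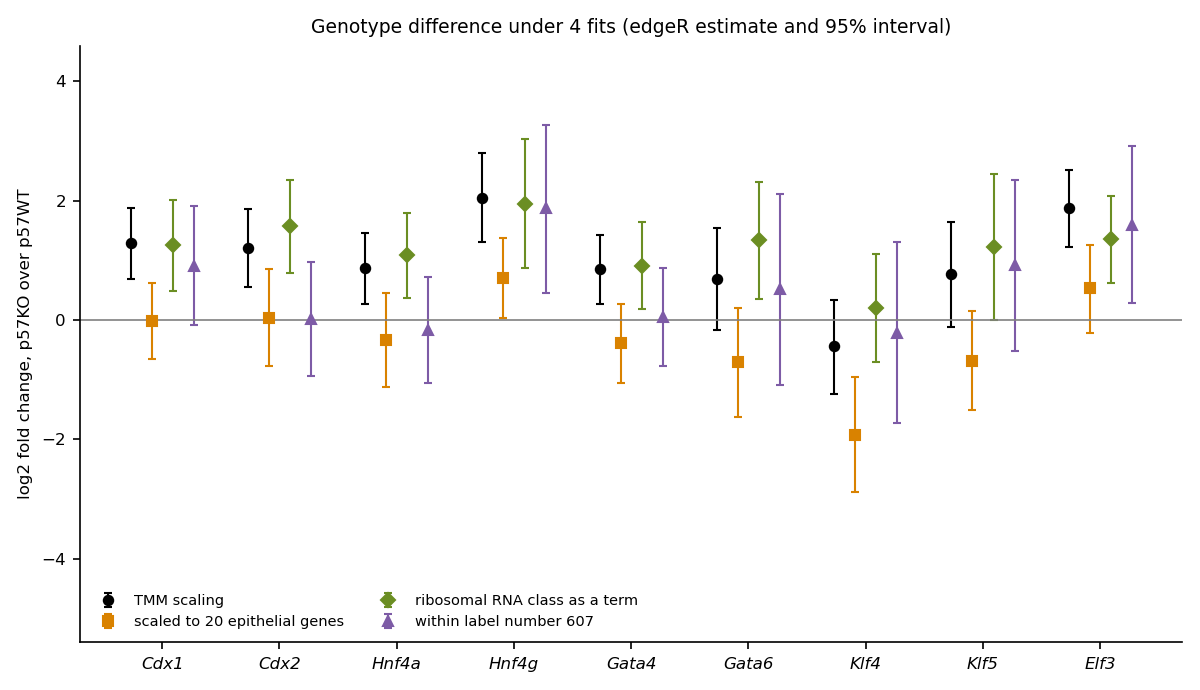
Log2 fold change of p57KO over p57WT for each factor with its 95% limits, under TMM, under epithelial scaling, with ribosomal RNA class as a term and within label number 607. All but Klf4 lie above 0 by TMM, and with epithelial scaling the values for Cdx1, Hnf4a, Gata4, Gata6 and Klf5 turn negative while Klf4 moves to -1.92.

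Only label number 607 holds both genotypes, with p57KO 1 and 2 against p57WT 1. In that fit 0 members were called, beside 1.1% of all tested genes called higher and 4.94% lower, and 2 members had an unadjusted p below 0.05. Elf3 had a log2 fold change of 1.60 (edgeR adjusted p = 0.145), Hnf4g 1.87 (0.115) and Cdx1 0.91 (0.272). Cdx2 was at 0.02 (0.984), Gata4 at 0.06 (0.944) and Hnf4a at -0.16 (0.845), so that these 3 showed little difference between the 607 libraries. For Cdx2, p57KO 1 and 2 had 39.6 and 47.5 CPM beside 42.9 CPM in p57WT 1. The lone p57WT library is assumed to vary like the others.

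With ribosomal RNA class as a term, 5 members were called higher, against 7.22% of all tested genes. These were Cdx2 (log2 fold change 1.57, edgeR adjusted p = 0.0124), Elf3 (1.35, 0.0182), Hnf4g (1.95, 0.0204), Cdx1 (1.26, 0.0288) and Hnf4a (1.09, 0.0394). Gata4 was at 0.91 (edgeR adjusted p = 0.0798) and no longer passed. Gata6 was at 1.34 (0.0585) and Klf5 at 1.22 (0.152), against 0.68 and 0.77 without the term, and neither passed.

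Ratios of paralogs within a library do not depend on scaling. The log2 ratio of Klf5 to Klf4 counts was 3.01, 3.61, 2.48, 2.76 and 2.59 in p57KO 1 to 5, against 2.14, 1.90, 1.99, 2.00 and 0.90 in p57WT 1 to 5. Every p57KO library lay above every p57WT library. The means of 2.89 ± 0.45 and 1.79 ± 0.50 (SD, n = 5 each) differed by 1.10, with a two-sided exact permutation p of 0.00794, the smallest that 5 libraries against 5 can give, and 0.0317 after Benjamini-Hochberg adjustment over the 4 ratios. Because the genotypes do not overlap, the same order within label number 607 and within each ribosomal RNA class follows and adds no evidence. The adjusted exact p was 0.0635 without p57WT 5 and 0.0714 without p57KO 1 and 2. Without p57KO 1 and 2, the smallest exact p that can be given is larger than with all libraries.

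Hnf4g over Hnf4a was 0.79, 0.90, -0.28, 0.12 and -0.94 in p57KO 1 to 5, against -1.20, -1.29, -0.70, -0.60 and -1.72 in p57WT 1 to 5. Only p57KO 5 lay inside the p57WT range. The difference was 1.22 (exact permutation p = 0.0238, adjusted 0.0476), and the call held only when p57KO 5 was left out. Without any other library the adjusted exact p was 0.0635 to 0.0952.

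The other ratios did not differ beyond their spread. Cdx2 over Cdx1 was -2.34 ± 0.63 in p57KO and -2.26 ± 0.33 in p57WT (SD, n = 5 each, exact permutation p = 0.913). Within p57KO it was -2.90 and -3.15 in libraries 1 and 2 and -1.96 to -1.80 in 3 to 5. Gata6 over Gata4 was 0.85 ± 0.82 and 1.20 ± 0.69 (SD, n = 5 each, exact permutation p = 0.50).

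**Figure D3:**
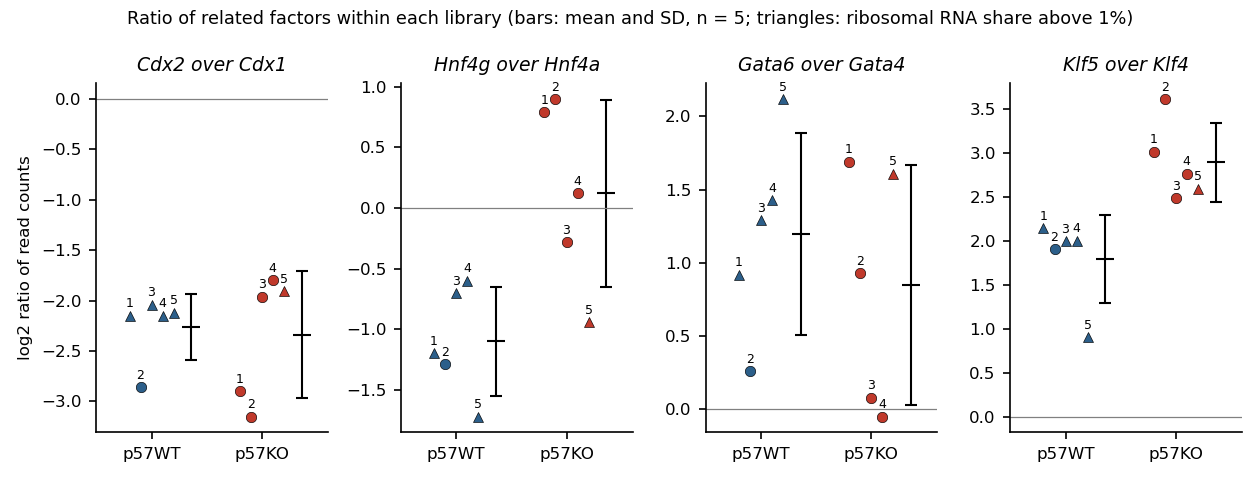
Log2 ratio of counts of 4 pairs of related factors in each library, by genotype, with the mean and SD of 5 libraries beside the points and triangles for a ribosomal RNA share above 1%. The genotypes are separate for Klf5 over Klf4 only, and p57KO 5 is the p57KO library that overlaps p57WT for Hnf4g over Hnf4a.

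Levels were compared between members in CPM per kilobase of exons. In p57WT, Cdx1 was highest at 70.8 CPM per kb, followed by Elf3 at 46.9 and Klf5 at 45.2. Elf3 was above Klf5 in only 1 of 5 p57WT libraries, so this pair had no firm order. Klf4 (22.7), Hnf4a (20.5) and Hnf4g (18.3) came next, and of these 3 each was above the following one in 3 of 5 libraries. Cdx2 (11.6), Gata6 (9.17) and Gata4 (6.60) were lowest.

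In p57KO the same scale put Cdx1 (172.6) and Elf3 (170.9) at the top, with Cdx1 the higher of the pair in 3 of 5 libraries. Klf5 (76.8) and Hnf4g (75.8) followed, again in that order in 3 of 5. Hnf4a was at 37.4, Cdx2 at 26.6, Klf4 at 16.7, Gata6 at 14.7 and Gata4 at 11.9 CPM per kb. Klf4 thus had rank 4 in p57WT and rank 7 in p57KO, and Hnf4g rank 6 and rank 4.

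**Figure D4:**
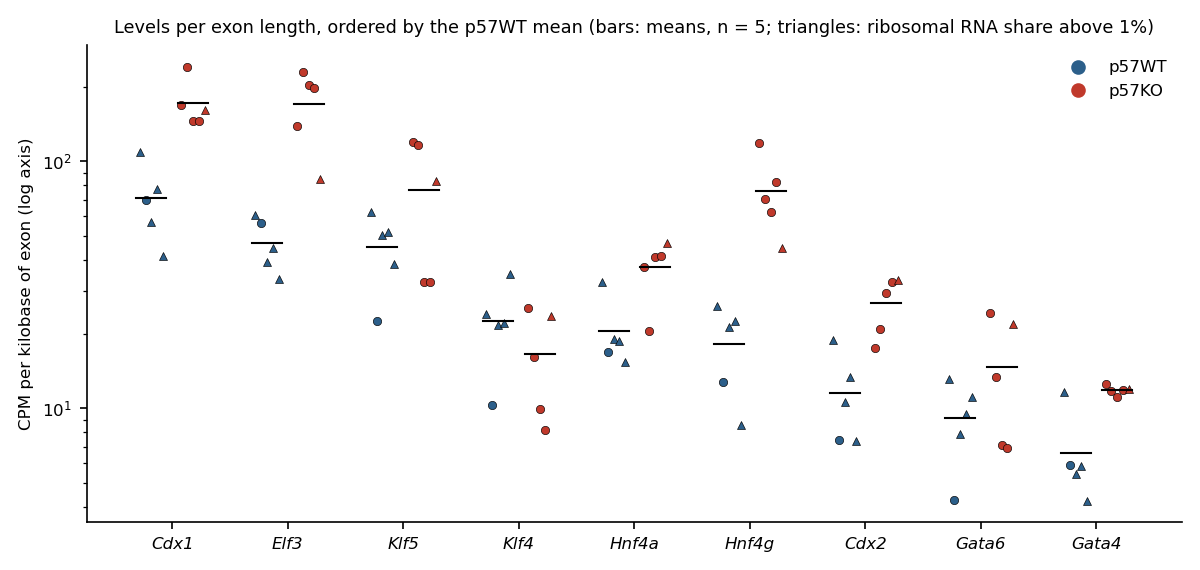
Mean level of the 9 factors in CPM per kilobase of exons in p57KO and p57WT, with points for single libraries (triangles, ribosomal RNA share above 1%) and bars at the means, on a log axis. Cdx1 leads in both genotypes and Gata4 is lowest in both.

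Another 20 epithelial transcription factors were examined beside the members. By TMM 9 were called higher and 0 lower (median log2 fold change 1.26), beside 19.3% and 17.2% of all tested genes. With epithelial scaling 1 was called higher and 7 lower (median -0.11), beside 2.44% and 61.3% of all tested genes. Prdm1, a repressor that holds back the adult enterocyte programme before weaning, averaged 53.4 ± 9.21 CPM in p57KO against 13.4 ± 2.22 CPM in p57WT (SD, n = 5 each, log2 fold change 2.00, edgeR adjusted p = 0.000178). Nr1h4, the bile acid receptor FXR, had a log2 fold change of 2.54 (edgeR adjusted p = 0.000254), Creb3l3 1.93 (0.000789) and the ETS factor Ehf, related to Elf3, 1.87 (0.000982).

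Of 16 tested relatives of the members, all from the GATA, KLF and ELF families, 2 were called higher and 1 lower by TMM. Their median was -0.23, and 19.3% and 17.2% of all tested genes were called higher and lower. Elf1 (log2 fold change 1.04, edgeR adjusted p = 0.00444) and Gata5 (0.95, 0.0196) were higher and Klf7 (-1.09, 0.0181) lower. With epithelial scaling 0 were higher and 11 lower, a share near the 61.3% of all tested genes that were lower on that scale.

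Of 23 tested genes reported elsewhere as CDX and HNF4 targets, mostly in absorptive cells, 22 were called higher in p57KO by TMM. The goblet cell mucin gene Muc2 was not called (log2 fold change 0.87, edgeR adjusted p = 0.0627). The median log2 fold change of the 23 genes was 2.12, and 19.3% of all tested genes were called higher. With epithelial scaling 9 of the 23 were called higher (median 0.97), beside 2.44% of all tested genes. The sucrase gene Sis had a log2 fold change of 4.37 (edgeR adjusted p = 0.000332), the glucose carrier Slc5a1 2.54 (0.000286) and Ttr 2.53 (0.000343). Within label number 607, which holds a lone p57WT library, the median log2 fold change of the 23 genes was 1.04. It was 1.05 over the 20 structural epithelial genes and 0.15 over all tested genes, so the targets did not stand out from other epithelial genes there.

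Gata4 is known to favour proximal over ileal genes, and both kinds were higher by TMM, where 19.3% of all tested genes were called higher. Of 9 proximal genes 8 were called higher (median 2.72), among them the iron exporter Slc40a1 (2.14, edgeR adjusted p = 0.000559) and the fat absorption genes Fabp1 (2.87, 0.000697) and Apoa1 (3.89, 0.000761). Fabp1, Apoa1, Apoa4 and Lct are also among the CDX and HNF4 targets above, so the lists share these results. Of 8 ileal genes 5 were called higher (median 2.01), among them the bile acid carriers Slc51a (3.02, 0.000239) and Slc10a2 (3.38, 0.000742). Fabp6 (1.57, edgeR adjusted p = 0.0818), Fgf15 (1.27, 0.170) and Osr2 (0.66, 0.248) were not called. With epithelial scaling 5 proximal genes were higher and 1 lower, and 4 ileal genes were higher. On that scale 2.44% of all tested genes were higher and 61.3% lower.

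Of 12 genes reported as KLF targets, 6 were called higher and 2 lower by TMM (median 0.49), beside 19.3% and 17.2% of all tested genes. With epithelial scaling 0 were higher and 6 lower, where 61.3% of all tested genes were lower. Cdkn1a, an inhibitor of the cell cycle that Klf4 is known to induce, had a log2 fold change of 2.12 (edgeR adjusted p = 0.00170). Ccnd1, a cyclin that Klf5 is known to promote, was lower at -1.80 (0.000833), and the mitotic gene Birc5 was higher at 1.70 (0.00107). Alpi, which was also called higher, is on the list of CDX and HNF4 targets too.

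Foregut and gastric genes, which appear when Cdx2 is lost, were represented by 8 of 18 listed. Sox2, Cldn18 and Muc5ac were among those absent from the count table. The 7 tested gave 0 calls by edgeR (median -0.63), 0 by the DESeq2 Wald test and 0 at an unadjusted p below 0.05. The summed level of the 8 genes was 1026, 354.4, 36.7, 62.5 and 127.5 CPM in p57KO 1 to 5. In p57WT 1 to 5 it was 701.2, 78.1, 985.9, 648.3 and 374.8 CPM. Onecut2, Tff2, Muc6 and Gkn3 made up most of it in p57KO 1, at 451.4, 260.1, 147.7 and 146 CPM. Where along the gut these genes were expressed was not tested. Cdx2 relative to epithelial genes was 3.12 and 3.96 in p57KO 1 and 2 and 9.34 to 11.5 in p57KO 3 to 5. In p57WT 1 to 5 it was 7.89, 5.13, 7.29, 8.79 and 7.14. Among p57WT libraries, p57WT 2 thus had both the lowest relative Cdx2 and the lowest foregut sum, unlike the order within p57KO. Whether the level of Cdx2 has a part in the foregut sum was not tested. Without p57KO 1 and 2, 5 of the 7 foregut and gastric genes were called lower, beside 3299 of all 17312 genes tested in that fit.

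**Figure D5:**
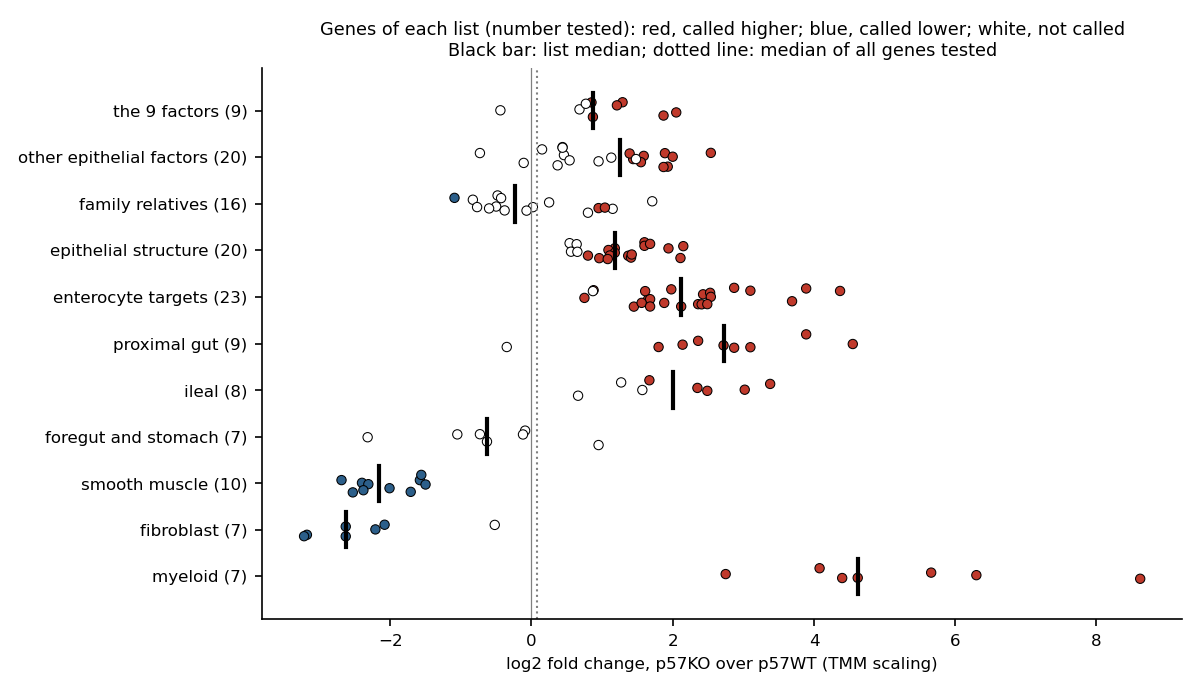
Log2 fold change of p57KO over p57WT by TMM for every tested gene of 11 lists, the 9 factors first, with a bar at each median, a dotted line at the median of all genes (0.08), red for called higher, blue for called lower and white for not called. Enterocyte target genes have a median of 2.12 and the factors 0.87; with epithelial scaling these medians are 0.97 and -0.33.

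For each member the genes with the most similar course over the 10 libraries were found as the smallest root mean square difference of centred log2 CPM, among 12439 genes. For Cdx1 these were Krt19 (0.16), Marveld2 (0.19) and Grb7 (0.20), the first being one of the genes used for epithelial scaling. For Gata4 they were Gm45224 (0.17), its relative Gata5 (0.17) and Fam234b (0.18), and for Elf3 AA986860 (0.15), Lgals3bp (0.21) and Atp6ap2 (0.22). Cdx2 was nearest to Qdpr (0.16), Sgpp2 (0.24) and Clic6 (0.25), and Hnf4a to Plch1 (0.17), Scml4 (0.20) and Ppip5k2 (0.21).

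The remaining members had less close partners or partners of other kinds. Hnf4g was nearest to Nostrin (0.24), Smim31 (0.28) and Aqp11 (0.29), and Klf4 to Hnrnpd (0.16), Rock2 (0.21) and Trim41 (0.22). Klf5 was nearest to Ccdc71l (0.22), Kif21b (0.26) and Sfn (0.26), and Gata6 to Kif21b (0.25), Bmp2 (0.27) and Frat1 (0.27), so that this pair shared Kif21b. Between members the closest pairs were Cdx1 with Gata4 (0.30) and Gata4 with Hnf4a (0.31). Klf4 was farthest from Hnf4g (1.52) and Elf3 (1.49).

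The 9 genes lie on GRCm38 as follows in the annotation. Cdx1 (ENSMUSG00000024619) spans chromosome 18, 61018862 to 61036199, and Gata6 (ENSMUSG00000005836) chromosome 18, 11052064 to 11085635. Cdx2 (ENSMUSG00000029646) spans chromosome 5, 147300805 to 147307270, Hnf4a (ENSMUSG00000017950) chromosome 2, 163506808 to 163572910, and Hnf4g (ENSMUSG00000017688) chromosome 3, 3508030 to 3658052. Gata4 (ENSMUSG00000021944) and Klf5 (ENSMUSG00000005148) both lie on chromosome 14, at 63198922 to 63271692 and 99298691 to 99315036. Klf4 (ENSMUSG00000003032) spans chromosome 4, 55527143 to 55532466, and Elf3 (ENSMUSG00000003051) chromosome 1, 135253575 to 135258568.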

How the data were processed

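Counts were analysed for 10 libraries, 5 p57KO and 5 p57WT, grouped by their titles. The design text speaks of 5 intestines per genotype, so each was taken as a separate animal. The deposited table held raw counts of reads per gene, per the file headers. It also held a signal value deposited by the authors, the count divided by a size factor per library. The authors' comparison was deposited as log2 fold changes with standard errors, the Wald score, the p-value and the adjusted p-value, as the file headers name them (deposited by the authors). In the authors' deposited table Elf3 had a log2 fold change of 1.92 (adjusted p = 1.02e-07), Hnf4g 2.08 (2.58e-07) and Klf4 -0.44 (0.385). Per the submitters' processing notes, build mm10 (GRCm38) was used with STAR 2.6.1d, HTSeq 1.0, Cufflinks 2.2.1, DESeq2 1.22.2, Trim Galore and FastQC; the strand setting is not given in the sources used here. Genes under a mean normalized count of 3.00 were not analysed here, and 139 entries had a blank symbol.

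Genotypes were compared with edgeR 4.0.16 (R 4.3.3), by quasi-likelihood test with TMM scaling, the tool's expression filter (3869 genes removed) and genotype as the only term, with Benjamini-Hochberg adjustment over 16710 genes. The fit was tested on simulated data. Of the identifiers, 20558 matched GENCODE M21. Alternatives were DESeq2 1.42.0 size factors and Wald test, limma 3.58.1 voom, no filter, epithelial scaling, replicate, label number and ribosomal RNA terms, and leaving out libraries. Ratios had 0.5 counts added, and likeness used log2(CPM + 0.5) of genes averaging 5 CPM or more. Limits are at 95%. Floors speak to counting error alone, because no molecular identifiers mark independent molecules. No pair of libraries agreed to within sampling noise. The members and lists were chosen with earlier results of these data known. The rule for named genes took the members, Cdkn1c, Hopx, Epcam, up to 4 genes per list with the smallest p, and the 3 nearest genes to each member. Gata5, the antisense genes and single genes of other lists not covered by it were named after their values were seen.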

Additional observations from a re-analysis of the deposited data

Results flagged for a closer look

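Of 26 groups of 5 libraries checked for a library far from the others, 5 had one, where chance gives about 1 in 20. Cdx1 was at 421.6 CPM in p57KO 2, with the other p57KO libraries between 254.5 and 296.3 CPM. Hnf4a was at 157.2 CPM and Gata4 at 45.4 CPM in p57WT 1, each the highest p57WT library by a wide gap. The log2 ratio of Cdx2 to Cdx1 was -2.86 in p57WT 2, while the other p57WT libraries lay between -2.15 and -2.04. The log2 ratio of Klf5 to Klf4 was 0.90 in p57WT 5, below 1.90 to 2.14 in the others. p57WT 1 is the only p57WT library of label number 607, and p57WT 2 the only one with a low ribosomal RNA share.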

How the results depend on the processing

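With DESeq2 size factors, the DESeq2 Wald test, limma voom, no expression filter and the replicate block, the counts of called genes stayed within 1.5 times the TMM result. The replicate numbers do not pair the libraries (same-number correlations -0.15 to 0.23, and 2 of 5 p57KO libraries matched best with their own number). With the block 6 members were called higher, and the log2 ratio differences of Hnf4g to Hnf4a (1.22) and Klf5 to Klf4 (1.10) were not called, since 5 pairs cannot give an exact p under 0.0625. Genes called higher and lower were 407 and 10241 with epithelial scaling, 183 and 826 with the label number, 1207 and 1752 with ribosomal RNA class, and 1544 and 1064 with mean smooth muscle expression as a covariate, which was chosen after seeing the data. Members called higher were then 0, 0, 5 and 2 (Cdx2 and Elf3), and 1 was lower with epithelial scaling. Signs turned for Cdx1 (-0.02), Hnf4a (-0.33), Gata4 (-0.39), Gata6 (-0.71) and Klf5 (-0.68) with epithelial scaling, Hnf4a (-0.16) with the label number, Gata6 (-0.13) and Klf5 (-0.65) with the smooth muscle covariate, and Klf4 (0.20) with ribosomal RNA class; the cause was not tested. Leaving out each library gave 2405 to 3653 genes higher, 2246 to 3542 lower and 4 to 6 members higher, and Cdx1, Cdx2, Hnf4g and Elf3 were called in all 10 fits. The ratio differences then ranged from -0.23 to 0.12 for Cdx2 to Cdx1, 1.03 to 1.49 for Hnf4g to Hnf4a, -0.59 to -0.12 for Gata6 to Gata4 and 0.88 to 1.21 for Klf5 to Klf4. Without p57KO 1 and 2 the difference was 0.38 for Cdx2 to Cdx1, 0.74 for Hnf4g to Hnf4a and 0.82 for Klf5 to Klf4. Epithelial scaling was itself varied after seeing the data: Cdx1 was 0.06 with ribosomal RNA class and 0.12 without p57KO 1 and 2, Hnf4a was 0.08 without them and Gata6 0.03 with ribosomal RNA class, and with each library left out Cdx1 ranged from -0.12 to 0.09 and Cdx2 from -0.17 to 0.24. Gata6 passed as lower there only without p57KO 5 (-1.14, edgeR adjusted p = 0.0231). A per-kilobase ratio was not run, as length cancels in a difference. Gata4, at 16.5 to 48.8 CPM, is the member with the lowest level per length.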

Other observations

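Of 10 crypt stem cell genes, 1 was called higher and 3 lower in p57KO by TMM, beside 19.3% and 17.2% of all tested genes. Hopx, whose promoter drives the reporter, averaged 150.6 ± 30.6 CPM in p57KO against 71.3 ± 6.73 CPM in p57WT (SD, n = 5 each, log2 fold change 1.08, edgeR adjusted p = 0.00191), and its log2 fold change was -0.34 with epithelial scaling (edgeR adjusted p = 0.341). Lrig1, a brake on ErbB signalling, was lower (-1.87, edgeR adjusted p = 0.00116), as were Smoc2 (-1.13, 0.00613) and Znrf3 (-1.53, 0.00860), which are Wnt-related crypt genes. With epithelial scaling 0 of the 10 were higher and 8 lower, where 61.3% of all tested genes were lower.

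Of 10 immediate early genes, which respond to cell dissociation, Fosb (-1.68, edgeR adjusted p = 0.00805) and Nr4a1 (-1.61, 0.00836) were lower and Atf3 (1.19, 0.0103) higher. Of all tested genes, 17.2% were called lower and 19.3% higher, so these counts do not stand out. Beside those 19.3%, all 5 tested hepatocyte genes were called higher, among them Serpina1b (3.91, edgeR adjusted p = 0.000178) and Afp (2.65, 0.0123). All 7 erythroid genes were called higher too (median 3.51). Hnf4a and Gata4 are also liver factors. The part of other cells in the level of any member, Klf4 included, was not tested.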
